A study of Mus musculus with 2 samples.

Results

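The genes that receive, make, clear and carry the nucleoside adenosine were measured in hippocampal RNA of 2 mice. They are the 4 adenosine receptor genes (Adora1, Adora2a, Adora2b and Adora3), 3 genes of adenosine enzymes (Ada, Adk and Nt5e) and 2 nucleoside transporter genes (Slc29a1 and Slc29a2). They were chosen by symbol, 9 of 55536 annotated genes, and all 9 were in the tables. The mice were adult B6CASTF1/J females, the offspring of a C57BL/6J by CAST/EiJ cross, aged 8 to 10 months. Animals 1 and 5 are biological replicates 1 and 2. Each gave 1 total RNA library from 300 ng of RNA, made with a directional, ribosomal-RNA-reduced kit and ERCC spike-ins, which are synthetic transcripts added in known amounts. The labels name a layer of the hippocampus without saying which one, and they give both samples a single donor identifier in spite of the different animal numbers. The 2 libraries form 1 group, so there are no conditions to compare and no p-value, and every spread below may hold technical as well as animal variation.

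Adenosine is formed outside cells from released ATP, and inside cells from AMP and S-adenosylhomocysteine. It acts through G protein-coupled receptors, of which the A1 type inhibits transmitter release and neuronal firing and the A2 types raise cyclic AMP; caffeine blocks A1 and some A2 receptors. Equilibrative transporters let adenosine cross the membrane down its gradient, and adenosine kinase, mainly an astrocyte enzyme in the adult brain, keeps its level low by returning it to AMP.

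The gene tables held 34147402 expected counts on annotated genes in replicate 1 and 28356913 in replicate 2. An expected count shares each read among the transcripts that could have given it and need not be whole. Levels are given in TPM, a share of all transcripts that corrects for transcript length and so allows genes to be ranked. Excitatory neuron markers summed to 2778 and 3053 TPM in replicates 1 and 2 with 5 of 5 detected at a TPM of at least 1 in both, and astrocyte markers to 1559 and 1625 TPM with 7 of 7 detected. Choroid plexus markers stood apart between the libraries, at 31.1 TPM in replicate 1 and 653 in replicate 2, with 4 of 11 detected in both and Kcne2 at 0 in replicate 1. Most of both sums was Ttr, at 21.75 TPM in replicate 1 and 615 in replicate 2, so the sums mainly give the difference in that 1 gene.

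Adora1 and Adk led the set. Adora1, the A1 receptor, was at 104 TPM in replicate 1 and 99.2 in replicate 2 (102 ± 3.72, SD, n = 2), and Adk, adenosine kinase, at 32.2 and 28.6 TPM (30.4 ± 2.52). Together they held 83.2% of the summed TPM of the 9 genes in replicate 1 and 84.3% in replicate 2. Adora1 lay above 95.5% of the nuclear protein-coding genes by mean TPM and Adk above 81.0%.

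The transporters and Adora2b were in the middle of the transcriptome. Slc29a1, the equilibrative transporter ENT1, was at 9.61 and 9.78 TPM (9.70 ± 0.120), above 60.0% of nuclear protein-coding genes. Slc29a2, the related transporter ENT2, was at 9.60 and 6.12 TPM (7.86 ± 2.46), level with Slc29a1 in replicate 1 and below it in replicate 2. Adora2b, a receptor of low affinity for adenosine, was at 3.75 and 3.51 TPM (3.63 ± 0.170).

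The remaining members were near the detection threshold. Nt5e, the ectonucleotidase CD73 that makes adenosine from extracellular AMP, was at 1.56 and 2.05 TPM (1.80 ± 0.346). Adora2a, an A2-type receptor known for its high level in striatum, was at 1.29 and 0.750 TPM (1.02 ± 0.382). Adora3, the A3 receptor, was at 1.05 and 0.810 TPM (0.930 ± 0.170), and Ada, adenosine deaminase, which converts adenosine to inosine, at 0.790 and 0.750 TPM (0.770 ± 0.0283). Ada, at the bottom of the order, still lay above 38.0% of nuclear protein-coding genes, many of which had no counts.

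In all, 6 of the 9 genes reached a TPM of 1 in both libraries, where 59.1% of nuclear protein-coding genes did (13010 of 22015). Of the 8 gaps between neighbours in the order of levels, 5 exceeded the SD of both genes with the same sign in both animals. The gaps between Slc29a1 and Slc29a2, between Adora2a and Adora3, and between Adora3 and Ada did not. RNA from bulk tissue cannot tell fewer cells of a type from less RNA per cell. TPM here is a share of all entries, ribosomal and other noncoding RNA included; as a share of nuclear protein-coding genes alone every level was higher, with Adora1 at 204 and Adk at 60.9. The second transcript table, summed per gene, gave Adora1 a lower level of 83.3 ± 2.97 TPM and Adk 30.7 ± 1.42. There Slc29a2, at 9.62 ± 1.94 TPM, was above Slc29a1 at 9.35 ± 0.0469, and Nt5e was at 1.94 TPM in replicate 1 and 1.86 in replicate 2, the opposite order of the animals by TPM. That order came with Nt5e-204, a short noncoding model at 0.503 TPM from 1 count in replicate 1. The coding transcript Nt5e-201 was at 1.095 TPM in replicate 1 and 1.61 in replicate 2 there, the order of the gene table.

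**Figure D1:**
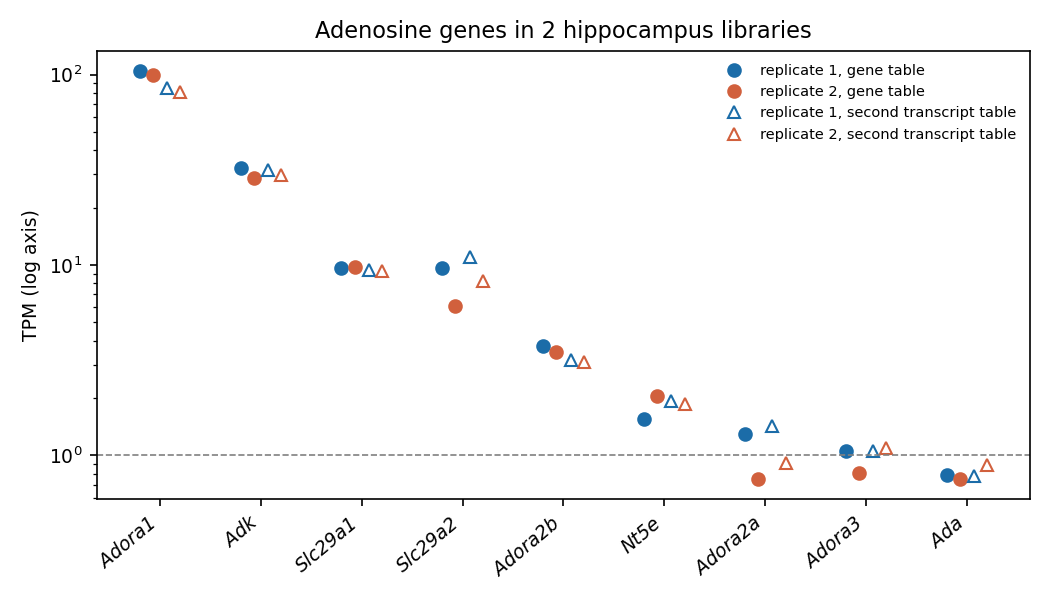
Level of each adenosine gene in TPM (log axis) in the 2 libraries, from the gene table (filled circles) and from the second transcript table summed per gene (open triangles); the dashed line is the detection threshold of 1 TPM. Adora1 is highest in both animals and both tables, at 104 and 99.2 TPM in the gene table and 85.4 and 81.2 in the second table, Adk follows near 30, and Adora2a, Adora3 and Ada lie around the threshold.

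Read counts set the precision of these levels and of the ratio between animals. Ratios are replicate 2 over replicate 1 of rounded expected counts after TMM scaling, each with an exact Clopper-Pearson 95% interval that covers counting error only. None of the 6 members with a mean count of at least 50 met a 2-fold criterion (a log2 ratio beyond 1 in either direction whose interval excludes no difference), beside 1.14% of the 14434 genes tested. The interval excluded 1 for 4 of those 6 members, or 66.7%, beside 44.0% of the genes tested, so an interval that misses 1 was common in this pair of libraries. Scaling by spike-ins placed the median of all genes tested at −0.26 on the log2 scale, where TMM placed it at −0.01.

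Adora1 rested on 9274 and 7328 counts, with a log2 ratio of −0.07 (−0.11 to −0.03). Adk rested on 979 and 714 counts, with a log2 ratio of −0.18 (−0.33 to −0.04). Both were slightly lower in replicate 2. They kept that sign and an interval excluding 1 under every other scaling tried and with the counts of the second transcript table. Each other scaling moved all ratios down from their TMM values, so for genes already lower in replicate 2 the scalings could not have changed this. Spike-in scaling gave −0.32 for Adora1 and −0.44 for Adk. The prior count and the count minimum do not enter the interval, so changing them could not alter it.

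Slc29a2 had 334 and 227 counts and a log2 ratio of −0.29 (−0.54 to −0.04), and its interval no longer excluded 1 with the counts of the second transcript table. Nt5e was the 1 member of the 4 that was higher in replicate 2, with 123 and 139 counts and a log2 ratio of 0.44 (0.09 to 0.81). With the counts of the second transcript table its log2 ratio was 0.39 (0.07 to 0.74), an interval that excludes a ratio of 1. With spike-in scaling its log2 ratio was 0.19 (−0.17 to 0.55), an interval that holds a ratio of 1. The choroid plexus marker sum given above, most of it Ttr, was also higher in replicate 2. Meningeal fibroblast markers, with 6 of 6 detected and none at 0, summed to 90.3 and 72.7 TPM. The part of either cell type in the Nt5e ratio was not tested.

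Slc29a1 had 299 and 266 counts and a log2 ratio of 0.10 (−0.14 to 0.34), which was −0.15 with spike-in scaling. Adora2b had 138 and 108 counts and a log2 ratio of −0.08 (−0.46 to 0.29). For these genes the interval held 1, so a difference between the animals was not detectable at this depth.

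The 3 members below a mean count of 50 give little on the ratio. Adora2a had 35 and 33 counts (log2 ratio 0.17, −0.55 to 0.91), Adora3 30 and 22 (−0.16, −1.04 to 0.66), and Ada 23 and 15 (−0.31, −1.39 to 0.65). Their signs turned in places: Adora2a was at −0.07 with spike-in scaling and −0.09 in the second transcript table, where Adora3 and Ada were both at 0.07. Striatal neuron markers, several of which hippocampal neurons also express, had 8 of 9 genes detected and none at 0, and summed to 94.6 TPM in replicate 1 and 123 in replicate 2; their part in the level of Adora2a was not tested.

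TPM and counts gave different ratios where the effective length of a gene differed between the libraries, most widely for Adora2a and Slc29a2. Adora2a had nearly equal counts, but a log2 ratio of its TPM of −0.78, because the gene table gave it an effective length of 1289 bases in replicate 1 and 2496 in replicate 2. In replicate 1 a short, incomplete transcript model, Adora2a-203, was assigned 6.97 of the 35 counts, and in replicate 2 it was assigned 0. Slc29a2 likewise had an effective length of 1650 bases in replicate 1 and 2107 in replicate 2, and a log2 ratio of −0.65 by TPM against −0.29 by counts. The lower TPM of Adora2a in replicate 2 thus came with the difference in effective length and not with lower scaled counts, and that of Slc29a2 came with both. Smaller gaps of this kind were seen for Adora3, at −0.37 by TPM and −0.16 by counts, and for Ada, at −0.07 and −0.31.

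**Figure D2:**
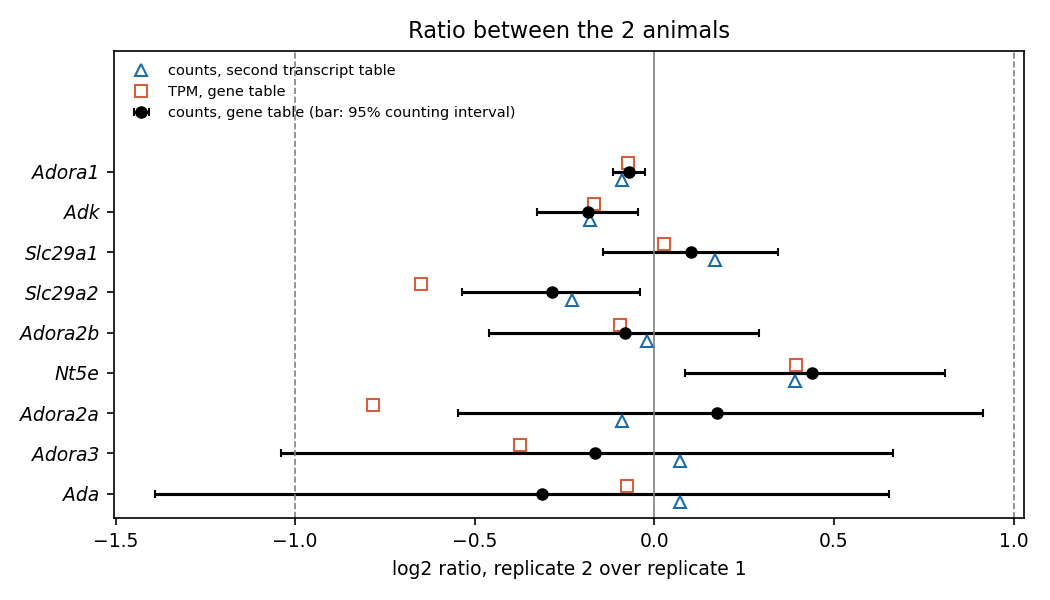
Log2 ratio of replicate 2 over replicate 1 for each gene: black points are gene table counts with the 95% counting interval, triangles are counts of the second transcript table, and squares are TPM. All black points lie between the dashed lines at a 2-fold difference, and the TPM squares of Slc29a2 and Adora2a lie far to the left of their count ratios.

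Among the receptors, Adora1 held 94.5% of the summed receptor TPM in replicate 1 and 95.1% in replicate 2 (94.8 ± 0.457%, n = 2). Its TPM was 27.9 times that of Adora2b in replicate 1 and 28.3 times in replicate 2. For whole genes, RNA of the receptor genes was thus mostly that of the inhibitory A1 type, with Adora2b next, and Adora2a and Adora3 each near 1 TPM. Those 2 values include other transcript models. The complete Adora2a-201 was at 0.530 and 0.750 TPM in the first transcript table and 0.565 and 0.573 in the second. Adora3-201, which holds the full receptor coding sequence, was at 0.150 and 0.280 TPM in the first and 0.878 and 0.990 in the second.

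The Adora1 gene lies on chromosome 1 at 134199223 to 134235431 on the minus strand (mm10, GENCODE M21, the source of all gene and transcript positions here). Its 3 complete transcripts hold the same 978 coding bases and differ only in their noncoding ends. Adora1-202 starts at the distal end. Adora1-201 keeps the 815-base first intron of Adora1-202 and ends 2124 bases earlier. Adora1-203 starts 853 bases downstream of Adora1-202 and lacks a 351-base stretch of the 3′ region. The 250 bases before the distal RefSeq start are shown because the annotated starts of Adora1-201, Adora1-202 and Adora1-204 lie within 100 bases of it (GRCm38.p6, chr1:134235458-134235707, minus strand). Capitals mark matches to the GC box GGGCGG on either strand.

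Adora1 distal promoter window: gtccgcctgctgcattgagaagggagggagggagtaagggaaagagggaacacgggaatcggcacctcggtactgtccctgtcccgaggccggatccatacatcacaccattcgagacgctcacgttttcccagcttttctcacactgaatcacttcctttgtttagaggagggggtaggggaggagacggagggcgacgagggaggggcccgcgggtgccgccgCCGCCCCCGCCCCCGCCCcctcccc

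This window held 3 adjacent GC box matches near its 3′ end, 19 CpG dinucleotides and 64.4% G and C, above 81.6% of the 32851 RefSeq promoter windows of that length. GGGCGG occurred on either strand in 32.7% of all windows. It held no match to the TATA box TATAAA, present in 12.4% of all windows, nor to the CCAAT box, present in 33.9%. The cyclic AMP response element TGACGTCA, present in 1.55% of windows, and the E-box CACGTG, present in 6.02%, had no match there either.

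The split of Adora1 among its transcripts depended on the table. In the first transcript table, Adora1-203 held 36.5% and 39.9% of the gene's TPM in replicates 1 and 2, Adora1-202 36.5% and 32.1%, and Adora1-201 21.6% and 23.0%. In the second transcript table, made by another method, Adora1-202 held 55.2% and 46.7%, Adora1-201 29.1% and 30.4%, and Adora1-203 15.7% and 22.9%. The second table thus gave both animals the same order. In the first table Adora1-203 and Adora1-202 were tied in replicate 1, and Adora1-203 led in replicate 2, where the tables differed in the leading transcript. By first-table counts, Adora1-202 led in replicate 1 (3913 against 3604 for Adora1-203) and Adora1-203 in replicate 2 (3120 against 2733). The incomplete model Adora1-204 held 5.32% and 4.99% in the first table and 0% in the second. The split among the 3 complete transcripts leaves the coding sequence the same.

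Adora2b has 1 annotated transcript, on chromosome 11 at 62248984 to 62266453, and so no split to estimate. Its promoter window held 6 GC box matches and 69.6% G and C. Adora2a lies on chromosome 10 at 75316877 to 75334784. Its 1 complete transcript, Adora2a-201, held 28.0 of 35 counts in replicate 1 and 33 of 33 in replicate 2 of the first table, and 37.2 of 42 and 31.5 of 33 in the second. By TPM, the shares of Adora2a-201 were 41.4% and 100% in the first table and 39.5% and 62.7% in the second, since a few counts on a short model weigh heavily per length. The second table gave 52.9% and 37.3% of the TPM to Adora2a-202, another short model, from 3.97 and 1.49 counts.

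Adora3 lies on chromosome 3 at 105870858 to 105908926, and its span overlaps that of Tmigd3, a gene on the same strand with 8.62 and 1 expected counts. The tables disagreed on how many reads Adora3 had. The second transcript table gave it 59.3 counts in replicate 1 and 52.5 in replicate 2, which is 1.95 and 2.38 times the gene table value, where the median over genes tested was 1.08 in both replicates. They also disagreed on which transcript it was. The first table put 16.2 and 9.69 counts on Adora3-202, which starts 33563 bases upstream of Adora3-201, and 7.24 and 11.3 on Adora3-201. The second table put 0 on Adora3-202 and 52.2 and 49.2 on Adora3-201, the form with the full receptor coding sequence of 957 bases. The posterior SD of the first-table count of Adora3-202, a measure of doubt in read assignment, was 4.36 and 3.62 counts. Microglial markers, with 7 of 7 genes detected, summed to 156 TPM in replicate 1 and 168 in replicate 2, and their part in the Adora3 level was not tested.

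Among the enzymes, Adk exceeded Ada 40.8-fold by TPM in replicate 1 and 38.2-fold in replicate 2, although Ada rested on only 23 and 15 counts. Adk lies on chromosome 14 at 21052574 to 21448569 on the plus strand. It has a long coding form of 1083 bases in Adk-201, known to give a nuclear enzyme, and a short coding form of 1035 bases in Adk-207, known to give a cytoplasmic enzyme. Adk-207 starts 23578 bases downstream of Adk-201, and the forms differ in their first coding bases. The start of each coding sequence is shown because the choice of first exon sets the form; capitals mark the bases coded in the first exon and lower case the shared second exon. The capitals cover chr14:21052639-21052700 in Adk-201, chr14:21053982-21054016 in Adk-208 and chr14:21076308-21076321 in Adk-207.

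Adk-201 coding start: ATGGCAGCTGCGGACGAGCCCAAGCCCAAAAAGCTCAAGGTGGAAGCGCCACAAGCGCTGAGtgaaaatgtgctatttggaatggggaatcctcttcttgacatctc

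Adk-208 coding start: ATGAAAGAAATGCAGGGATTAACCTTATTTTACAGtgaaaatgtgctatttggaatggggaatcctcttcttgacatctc

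Adk-207 coding start: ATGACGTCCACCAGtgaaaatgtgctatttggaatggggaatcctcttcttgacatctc

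The 62 capital bases of Adk-201 and the 14 of Adk-207 account for the difference in coding length. Adk-208 starts 1385 bases downstream of Adk-201 and is an incomplete model of 392 bases. The 250 bases before each of the 2 RefSeq starts follow, at chr14:21052324-21052573 for the upstream and chr14:21075902-21076151 for the downstream start (GRCm38.p6, plus strand). Capitals mark GC box matches, as above, and matches to CCAAT on either strand.

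Adk upstream promoter window: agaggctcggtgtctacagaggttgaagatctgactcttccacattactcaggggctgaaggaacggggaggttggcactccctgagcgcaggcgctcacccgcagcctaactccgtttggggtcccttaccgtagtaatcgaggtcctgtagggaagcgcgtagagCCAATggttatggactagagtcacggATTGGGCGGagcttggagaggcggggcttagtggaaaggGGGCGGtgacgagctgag

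Adk downstream promoter window: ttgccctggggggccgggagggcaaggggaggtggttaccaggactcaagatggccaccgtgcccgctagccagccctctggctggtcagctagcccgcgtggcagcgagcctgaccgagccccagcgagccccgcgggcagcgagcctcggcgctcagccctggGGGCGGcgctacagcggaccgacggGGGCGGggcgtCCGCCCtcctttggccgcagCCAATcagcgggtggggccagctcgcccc

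The upstream window held 58.8% G and C, 15 CpG, 2 GC box matches and 2 CCAAT matches, one of which overlaps a GC box. The downstream window held 75.2% G and C, 24 CpG, 3 GC box matches and 1 CCAAT match, and its G and C content was above 96.1% of all windows. Neither held TATAAA.

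In replicate 1 the tables gave Adk much the same split. Transcripts from the upstream start held 34.5% of the gene's counts in the first table and 37.8% in the second, and Adk-207 held 60.9% and 58.6%. In replicate 2 they did not: the first table gave the upstream start 38.3% and Adk-207 56.8%, and the second gave 81.5% and 14.2%. In counts, Adk-207 in replicate 2 had 406 in the first table, with a posterior SD of 49.6, and 114 in the second. The first table thus gave the short form the larger part in both animals and the second table in replicate 1 alone. Adk-208 held 18.8% and 18.2% of the gene's TPM in the first table but only 3.80% and 3.76% of its counts, because its model is short.

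**Figure D3:**
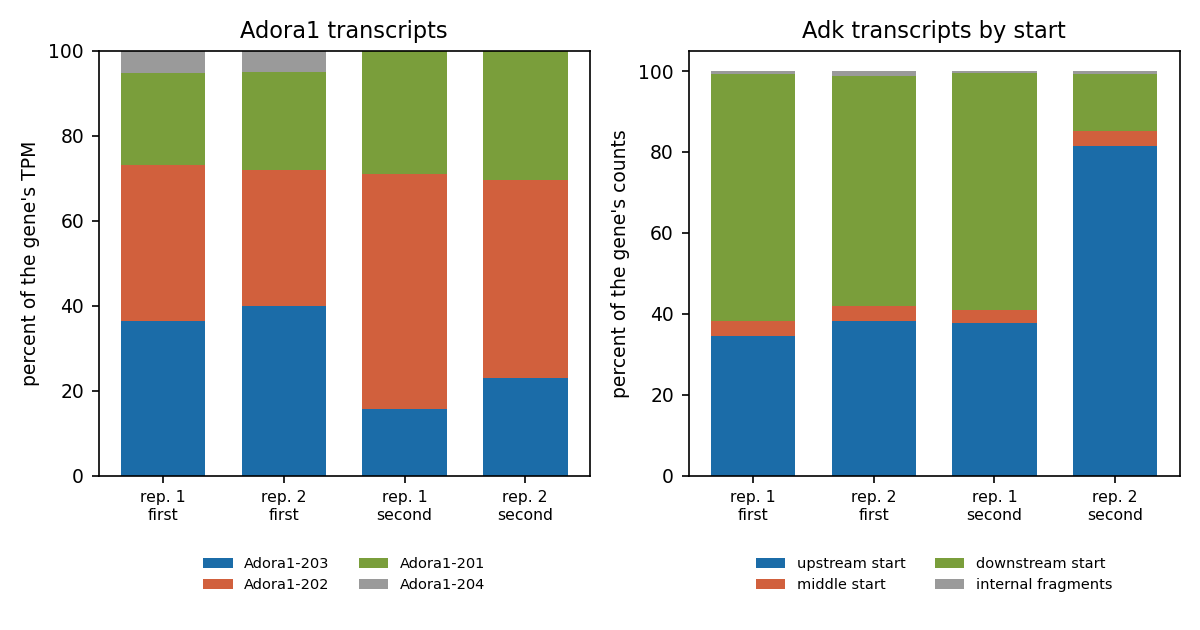
Stacked bars of transcript use in each library (rep. 1 and rep. 2) by the first and second transcript tables: left, percent of Adora1 TPM per transcript; right, percent of Adk counts by the start site of the transcript. The Adora1 bars differ by table more than by animal, and the Adk bar of replicate 2 in the second table, with 81.5% from the upstream start, stands apart from the other 3.

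Nt5e lies on chromosome 9 at 88327197 to 88372092. Its 1 coding transcript, Nt5e-201, held 85.3% and 94.2% of the counts in the first table and 79.8% and 88.9% in the second. The intron-retaining Nt5e-202 held 8.44% and 4.55% in the first table and 13.1% and 7.88% in the second. In the second table Nt5e-204, a noncoding model of 280 bases, took 26.0% of the TPM in replicate 1 from 1 count. Ada lies on chromosome 2 at 163726584 to 163750239, and its coding transcript Ada-201 held 94.2% and 84.3% of the counts in the first table and 94.5% and 91.7% in the second; the noncoding Ada-202 held the rest.

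Of the transporters, Slc29a1 lies on chromosome 17 at 45585200 to 45599606 on the minus strand and has 25 annotated transcripts. Some of them hold 6 more coding bases than others (1380 against 1374 in the complete forms). The stretch around that site is shown, with 30 flanking bases on each side; capitals mark the 6 extra bases, GTAAAG, at chr17:45588996-45589001, which are coding bases 761 to 766 of the long form. They begin with GT, the splice donor dinucleotide, and keep the reading frame.

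Slc29a1 long coding form: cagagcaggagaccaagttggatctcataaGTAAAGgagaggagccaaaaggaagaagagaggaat

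Slc29a1 short coding form: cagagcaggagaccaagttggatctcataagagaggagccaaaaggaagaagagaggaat

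In replicate 1, the 7 coding transcripts with the extra bases held 86.2 counts and the 3 without them 153 in the first table, and 85.9 and 146 in the second. In replicate 2, both tables gave 0 counts to the long form, beside 210 and 224 counts on the short form. In the first table the long share of the counts on these coding transcripts was thus 36.0% in replicate 1 (exact Clopper-Pearson 95% interval 29.8 to 42.3%). In replicate 2 it was 0% (0 to 1.74% by the same interval). The separate limit for a count of 0, taken as 3 counts of the 210, is 1.43%. That 0 is a best estimate of read assignment and is not firm. The posterior means of the same table put 93.0 counts on the long form in replicate 1 and 36.0 in replicate 2, a share of 41.0% (34.5 to 47.7%) and 17.6% (12.6 to 23.5%). By all 3 estimates the long share was lower in replicate 2, and the long form of that library ranged from 0 to 36.0 counts. Slc29a1-223 and Slc29a1-214, intron-retaining models whose spans include the site, were counted in neither form. In the first table Slc29a1-223 held 24.9 and 23.5 counts in replicates 1 and 2, and Slc29a1-214 held 0 and 4.97. The tables do not say how many reads cross the site itself. The intervals of the long share take assigned counts as observed reads, so they cover counting error only and not doubt in read assignment.

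**Figure D4:**
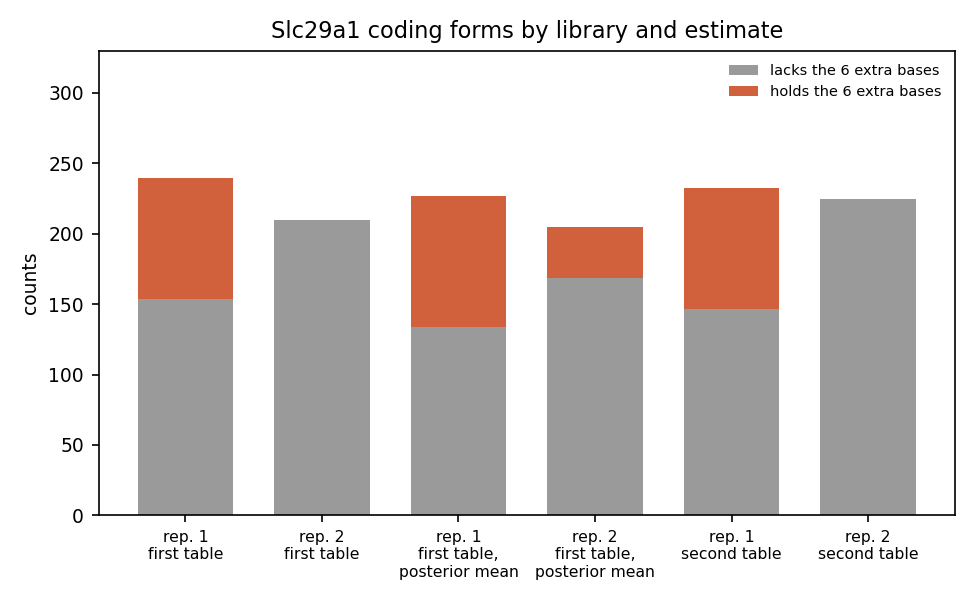
Counts on Slc29a1 coding transcripts with the 6 extra coding bases (orange) and without them (grey) in each library, by 3 deposited estimates. The long form has 86.2, 93.0 and 85.9 counts in replicate 1, and in replicate 2 it has 0 by both best estimates and 36.0 by the posterior mean.

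The single transcripts of Slc29a1 were assigned with less certainty than the forms. Slc29a1-202, a short form, held 34.9% and 45.9% of the TPM in the first table and 0.364% and 39.1% in the second, which gave 30.9% in replicate 1 to Slc29a1-222 instead, a transcript with the same 1374 coding bases and another first exon. Slc29a1-204, also short, held 4.69% and 16.6% in the first table and 0% and 17.5% in the second. Slc29a1-203, the leading long form, held 11.6% and 0% in the first table and 18.3% and 0% in the second. Slc29a1-206, Slc29a1-212, Slc29a1-216 and Slc29a1-224, all incomplete models, reached 10.9%, 15.2%, 11.0% and 17.8% at their highest in any library of either table.

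Slc29a2 lies on chromosome 19 at 5023860 to 5031972. Its longest coding form, Slc29a2-204, with 1368 coding bases, held 24.0% and 64.2% of the TPM in the first table but 40.2% and 33.2% in the second, so the tables differ in which animal had the higher share. Slc29a2-201, with 1281 coding bases, held 21.4% and 17.4% in the first table and 3.26% and 20.6% in the second. Slc29a2-206, with 1212 coding bases, held 12.3% in replicate 1 of the first table and 0% elsewhere, though its posterior mean in replicate 2 was 20.3 counts. Slc29a2-202, an incomplete model, held 32.3% and 0% in the first table and 21.1% and 14.1% in the second. Slc29a2-203, which retains an intron, held 3.85% and 9.00% in the first table and 28.1% and 23.2% in the second.

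The wider pathway comprised 63 other genes in 7 lists. Of these, 47 reached a TPM of 1 in both libraries, where 59.1% of nuclear protein-coding genes did, and 45 had a mean count of at least 50. Of those 45, 1 was at least 2-fold higher in replicate 2 and 0 were at least 2-fold lower, beside 1.14% of the 14434 genes tested in either direction. The median log2 ratio of the 45 was 0.02, beside −0.01 over all genes tested.

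That gene was Enpp2, autotaxin, which hydrolyses nucleotides and makes lysophosphatidic acid and is known to be abundant in choroid plexus epithelium. It had 67.4 TPM in replicate 1 and 185 in replicate 2, from 3710 and 8692 counts, a log2 ratio of 1.50 (1.44 to 1.55). It moved with the choroid plexus markers, of which all 7 with a mean count of at least 50 met the same criterion. Of 6 oligodendrocyte markers, 5 were also higher in replicate 2 and 1 was lower, with a median log2 ratio of 0.31, and 0 met the criterion. The part of either cell type in the Enpp2 ratio was not tested. Of the 9 genes of extracellular nucleotide hydrolysis, 6 were detected. Entpd1, or CD39, which degrades ATP and ADP to AMP, was at 9.44 ± 1.62 TPM, behind Enpp2, and at 15.1 ± 3.15 TPM in the second transcript table. Entpd8 had 0 counts in both libraries.

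Inside the cell, 15 of 17 genes of adenosine and AMP metabolism were detected. Ahcyl1 and Ahcyl2, which are related in sequence to S-adenosylhomocysteine hydrolase, were highest at 172 ± 1.65 and 116 ± 10.3 TPM. Ahcy, the gene of the hydrolase itself, was far lower at 8.20 ± 0.580 TPM. The high levels of Ahcyl1 and Ahcyl2 are thus not levels of that hydrolase. Nt5c1b, a cytosolic nucleotidase, and Ampd1, the AMP deaminase known from muscle, had 0 counts in both libraries. Dpp4, also on the pathway lists, was at 1.06 and 1.61 TPM in the gene table. In the second table Dpp4 was at 0.808 and 0.684 TPM, below the detection threshold in both libraries and with the opposite order of the animals.

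Of 5 other nucleoside transporters, 2 were detected: Slc29a4, a plasma membrane transporter of monoamines and adenosine, at 18.5 ± 0.636 TPM, and Slc29a3, a lysosomal transporter, at 6.41 ± 1.17 TPM. Slc29a4 was thus above both Slc29a1 and Slc29a2 in each library. The sodium-coupled transporter gene Slc28a1 had 0 counts in both.

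All 14 genes of G proteins and effectors were detected. Gnas, which encodes the stimulatory alpha subunit used by A2 receptors, was highest at 852 ± 18.6 TPM, followed by Gnao1, an inhibitory-class alpha subunit abundant in brain, at 330 ± 8.77 TPM, and the adenylyl cyclase Adcy8 was lowest at 6.57 ± 0.905 TPM. Among 3 genes of ATP release, Panx2 and Panx1, which encode pannexin channel proteins, were at 70.3 ± 4.89 and 12.2 ± 1.68 TPM, and the vesicular nucleotide transporter Slc17a9 was at 0.175 ± 0.0495 TPM from 3 and 7 counts, or 0.369 ± 0.199 TPM in the second table. Of 14 nucleotide receptor genes, 7 were detected, led by the microglial receptor P2ry12 at 20.3 ± 0.198 TPM and the channel P2rx4 at 9.88 ± 2.62 TPM. The lowest in the gene table was P2ry4 at 0.0400 ± 0.0424 TPM from 1 and 5 counts. In the second table P2ry4 was at 0.193 ± 0.0635 TPM, and P2rx2 was lowest at 0.0838 ± 0.0728 TPM. Adora1 was thus above every nucleotide receptor gene on this list.

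**Figure D5:**
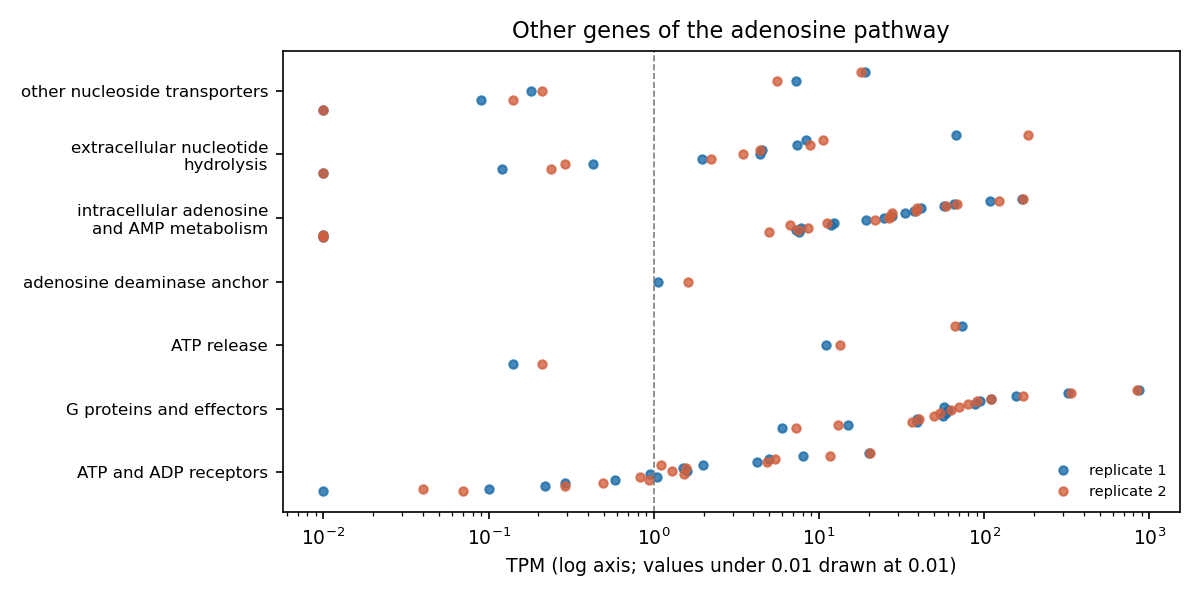
TPM (log axis) of 63 other genes of the adenosine pathway by list, 1 row of paired points per gene for replicates 1 and 2; values under 0.01 are drawn at 0.01 and the dashed line is 1 TPM. Most pairs nearly coincide, and the widest gap above 1 TPM is that of Enpp2, at 67.4 and 185 TPM.

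Reads of overlapping genes can bear on the members, and whether reads were counted by strand is not recorded in the labels or file notes. Mybph, opposite Adora1, had 2 expected counts in each library, Gm17080, opposite Slc29a1, had 0 and 1, and Gm26372, within Adk, had 0 and 3. These mice carry 1 CAST/EiJ genome copy while the annotation build is C57BL/6J, and the tables do not separate alleles; the effect of this on any member was not tested.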

How the data were processed

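Total RNA-seq libraries of 2 animals were analysed, grouped by their labels. Build mm10 and GENCODE M21 are given per the accompanying file notes; the aligner, tool versions and strand setting were not stated there or in the labels. Expected counts were deposited unnormalised for genes and for the transcripts of the first transcript table, together with posterior mean counts, per the file headers. The second transcript table was deposited with estimated counts per transcript. TPM was deposited, length-normalised by the authors. The authors also deposited a posterior SD, a signal that measures doubt in read assignment.

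Gene ratios used counts rounded to whole numbers, TMM scaling in edgeR 4.0.16 (R 4.3.3) over genes with a mean count of at least 10, and a prior count of 2; effective library sizes were 34171199 and 28337144. Intervals came from scipy 1.17.1. The ratio procedure was tested on simulated counts that held counting error but no variation between animals, so that test does not bear on the spread between animals. Spike-ins, 0.178% and 0.212% of counts, were left out of library sizes. Transcript shares are percent of a gene's TPM or counts, as stated. Promoter windows came from RefSeq (GRCm38.p6), where 8 of 9 members matched, and coding sequences from GENCODE M21.

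The members and lists were chosen with earlier results of these data known. The text names all members, their transcripts holding at least 10% of a gene's TPM in any library of either table, and of each pathway list the 2 highest and the lowest gene, those at least 2-fold different and those at 0. Ahcy was named in addition, beside the related Ahcyl1 and Ahcyl2. Alternatives covered other scalings, the second table, thresholds and each animal alone.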

Additional observations from a re-analysis of the deposited data

How the results depend on the processing

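With 2 libraries of 1 group, no result can be tested across animals, and low counts limit Adora2a, Adora3 and Ada. No paired analysis was possible because there is 1 group. The Adora1 share of the RNA of the receptor genes was 93.9% in the second transcript table and 97.8% by expected counts, which favour long transcripts, against 94.8% by TPM. The leading transcript was the same in 5 of 8 multi-transcript members in the second table; by the posterior mean, an alternative chosen after seeing the data, it was the same in 8, and in either animal alone in 6 to 8. Members detected numbered 6, with 7 in the second table, 9 at 0.5 TPM, 5 at 2 TPM and 6 to 8 in either animal alone. No member met the 2-fold criterion under any scaling, prior or count minimum tried. The order of neighbouring members held for 7 of 8 pairs in the second table and for 7 to 8 in either animal alone. Pathway genes detected numbered 42 to 50 under alternatives also chosen after seeing the data.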
